A study of Mus musculus with 2 samples.

Results

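The 30 genes described here carry out the synthesis, uptake, transport, storage and export of cholesterol, or sense its level, in regulatory T cells (Tregs) of the mouse spleen. They were chosen by name, and 20 or more unique molecular identifiers (UMIs, each standing for 1 captured transcript) over both libraries counted as measured. All 30 were measured, of 9839 measured genes among the 28692 of the matrices. Lss with 20 UMIs, Abca1 with 23, Tm7sf2 with 25 and Hsd17b7 with 28 lay just inside that minimum, and no member lay outside it. Of the members, 18 make cholesterol, 5 sense sterols or belong to the SREBP system, 4 move cholesterol out of lysosomes, between membranes or into stores, and 3 belong to export.

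Tregs are CD4 T cells that depend on the transcription factor Foxp3 and restrain immune responses. Both groups came from male B6 Pparg-Tdt.Foxp3-Gfp mice of 8 weeks, in which a red and a green fluorescent protein report Pparg and Foxp3. Tregs sorted as low for the Pparg reporter made the PPARg-low library and those without it the PPARg-negative library, each from the pooled spleens of 2 or 3 mice and each sequenced from the 3′ end of its transcripts in droplets (10x Genomics v2 chemistry). A reporter signal marks where Pparg is or was transcribed, not how active its product is, and no group without the reporter alleles was analysed here. With 1 library per group, no test between groups was possible, so every difference below compares these libraries and no replicate check exists. Every interval is an exact 95% interval and covers counting error only. PPARg is a nuclear receptor that switches on lipid genes when it binds fatty acids or their derivatives.

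Cells make cholesterol from acetyl-CoA through the mevalonate pathway, which yields isoprenoids and then squalene, and close and trim squalene into sterols. When sterols run low, Scap escorts the membrane-bound SREBP transcription factors to the Golgi for cleavage, and their released ends switch on synthesis genes. The Insig proteins hold Scap back when sterols are plentiful. Excess cholesterol is esterified by Soat1 or exported by Abca1 and Abcg1, whose genes respond to liver X receptors, and in macrophages PPARg is known to favour that export. In T cells, activation raises synthesis, and Tregs are known to need the mevalonate pathway for suppression.

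Cells with at most 10% mitochondrial UMIs were kept. The PPARg-low library then held 1619 cells and 2901710 UMIs, and the PPARg-negative library 2633 cells and 5897260 UMIs, with medians of 1517 and 2171 UMIs per cell. The libraries shared 5 barcode sequences. Pparg had 43 UMIs in the PPARg-low and 0 in the PPARg-negative library, and Foxp3 had 100 and 146. Cells with under 20% of UMIs from ribosomal protein genes, called ribosome-poor, numbered 951 in the PPARg-low library (58.7% of its cells) and 614 in the PPARg-negative library (23.3%). The others are called ribosome-rich. Ribosome-poor cells also had higher mitochondrial shares, with medians of 6.80 and 6.92% against 2.74 and 2.29%, and shallower depth, with 978 and 853 against 2294 and 2455 UMIs. Results are therefore given over all cells and within both kinds. How far a result over all cells goes with this split was not tested beyond the values within both kinds. Among markers of other cells, the 4 neutrophil genes had 0 UMIs in both libraries. The 13 macrophage, monocyte and dendritic cell genes summed to 396 and 309 UMIs per 1000000 UMIs of the library (CPM). Of these, 8 were detected in the PPARg-low and 6 in the PPARg-negative library, and Adgre1, Cd5l, Itgax and Clec9a were at 0 in both. The 6 B cell genes summed to 36.9 and 30.2 CPM, the 4 erythroid genes to 8.27 and 1.36 CPM, and the 5 NK and CD8 T cell genes to 34.8 and 32.9 CPM. Of 5 stromal and endothelial genes only Pecam1 was detected. The cell cycle genes summed to 1039 and 712 CPM. The 17 effector Treg genes summed to 8898 CPM in the PPARg-low and 1742 CPM in the PPARg-negative library, and the 12 resting Treg genes to 778 and 2629 CPM.

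Among synthesis genes, 4 were lower in PPARg-low than in PPARg-negative Tregs, and 2 were higher. The 4 act up to the closing of the sterol ring and the 2 finish the sterol, an ordering made after the values were seen. Other genes of the early steps were not called, and Pmvk and Fdft1 among them had ratios above 1. A gene is called higher or lower where the ratio of its CPM, PPARg-low over PPARg-negative, was 1.5 or more in either direction with its interval on the same side of 1. By that rule 4 of the 18 synthesis genes were lower (Acat2, Idi1, Sqle and Lss) and 2 were higher (Ebp and Dhcr7). Over all 9839 measured genes, 4.38% were called lower and 24.3% higher. The median log2 ratio of the 18 genes was -0.21, against 0.29 over all measured genes, and 13 of the 18 lay below that median. Ratios taken relative to that median called 7 of the 18 lower and 1, Ebp, higher, against 8.75% lower and 12.1% higher of all genes. Levels of all 30 members in both libraries, with their counting intervals, are plotted by group.

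**Figure D1:**
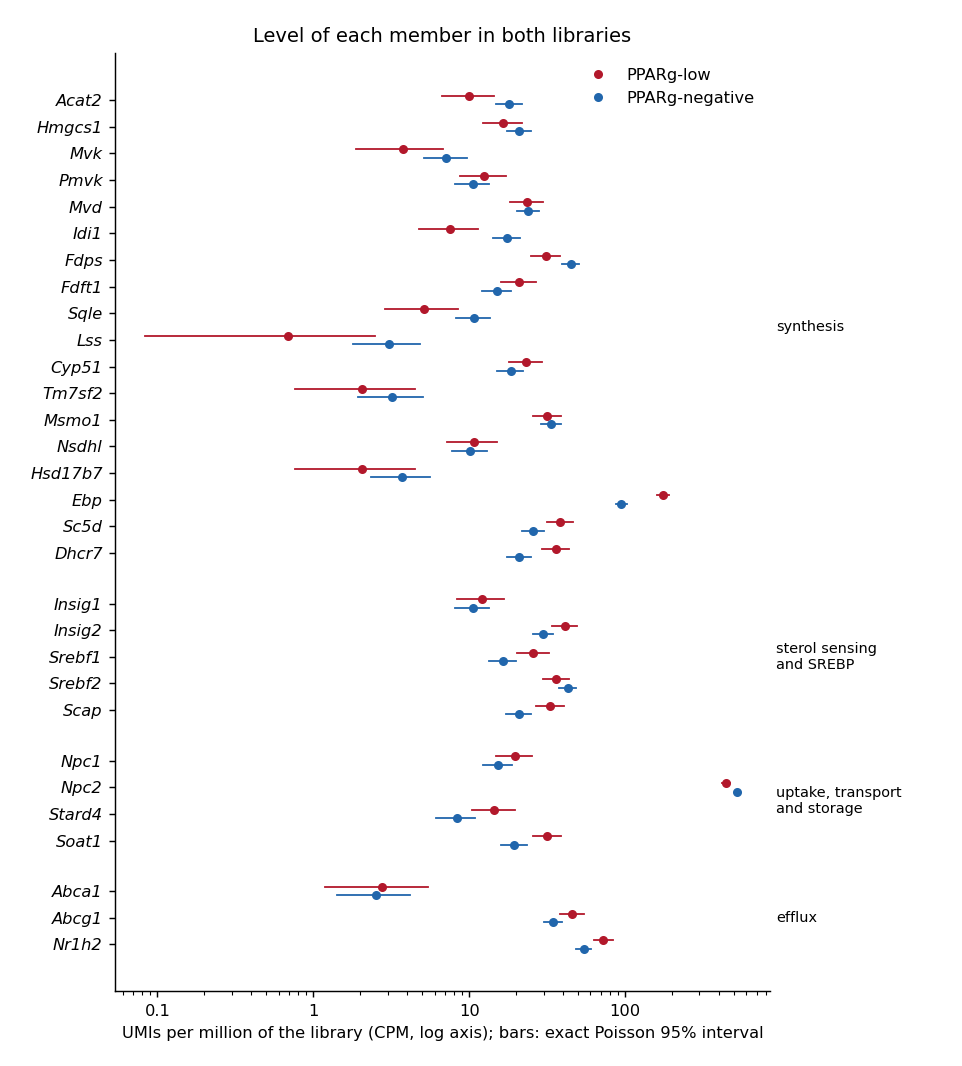
Level of each member in UMIs per 1000000 of the library (CPM, log axis) in the PPARg-low (red) and PPARg-negative (blue) library, over all kept cells, grouped by role; points are the library values and bars the exact Poisson 95% intervals. Idi1 stood at 7.58 CPM in the PPARg-low and 17.5 CPM in the PPARg-negative library, and Ebp at 176 and 94.8 CPM.

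Idi1 (ENSMUSG00000058258, mm10 chromosome 13, 8885501 to 8892451, plus strand) encodes the isomerase that turns isopentenyl diphosphate into the starter unit of all isoprenoids. It had 22 UMIs, or 7.58 CPM, in the PPARg-low library and 103 UMIs, or 17.5 CPM, in the PPARg-negative library, a ratio of 0.434 (0.261 to 0.693). Idi1 was the only member called lower over all cells and within both kinds of cells. Within ribosome-rich cells it had 6.87 and 15.8 CPM, a ratio of 0.434 (0.215 to 0.799), and within ribosome-poor cells 8.66 and 30.5 CPM, a ratio of 0.284 (0.119 to 0.636). In the 14 alternative settings that could measure it, Idi1 was called lower in each, with ratios from 0.284 to 0.459.

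Of the other 6 genes of the mevalonate segment, which runs from acetyl-CoA to farnesyl diphosphate, only Acat2 was called. Acat2 (ENSMUSG00000023832, chromosome 17, 12942890 to 12960747, minus strand), the thiolase that joins the first acetyl-CoA units, had 29 UMIs (9.99 CPM) in the PPARg-low and 107 UMIs (18.1 CPM) in the PPARg-negative library, a ratio of 0.551 (0.352 to 0.837). Hmgcs1, which makes HMG-CoA, had 48 and 124 UMIs, or 16.5 and 21.0 CPM. Its ratio of 0.787 (0.552 to 1.11) was not called. The mevalonate kinase gene Mvk had 11 and 42 UMIs, a ratio of 0.532 (0.247 to 1.05), and at this depth no difference was detectable. Pmvk and Mvd, the next kinase and the decarboxylase, had ratios of 1.18 (0.760 to 1.81) and 0.980 (0.723 to 1.32). Fdps (ENSMUSG00000059743, chromosome 3, 89093588 to 89101959, minus strand) joins isoprenoid units into farnesyl diphosphate, the branch point to squalene and to protein prenylation. It had 90 UMIs (31.0 CPM) in the PPARg-low and 265 UMIs (44.9 CPM) in the PPARg-negative library, a ratio of 0.690 (0.537 to 0.880) whose interval lay below 1 without reaching the 1.5-fold size. Fdps overlaps the annotated copy Gm43738 on the same strand, so its reads may have been divided between them. Summed over these 7 genes from Acat2 to Fdps, a grouping made after the values were seen, the level was 105 CPM in the PPARg-low and 143 CPM in the PPARg-negative library, a ratio of 0.732 (0.640 to 0.836). All 7 lay below the median ratio of all genes.

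From squalene onward the genes went both ways. Fdft1, squalene synthase, had 61 and 89 UMIs, a ratio of 1.39 (0.989 to 1.95). Sqle (ENSMUSG00000022351, chromosome 15, 59315077 to 59331192, plus strand) encodes the epoxidase that commits squalene to sterols. It had 15 UMIs (5.17 CPM) in the PPARg-low and 63 UMIs (10.7 CPM) in the PPARg-negative library, a ratio of 0.484 (0.256 to 0.860). Lss (ENSMUSG00000033105, chromosome 10, 76531588 to 76557138, plus strand), which folds the epoxide into lanosterol, had 2 and 18 UMIs, a ratio of 0.226 (0.0254 to 0.943) that rests on very few counts. The demethylation and reduction steps from Cyp51 to Hsd17b7 were not called over all cells: Cyp51 had a ratio of 1.25 (0.907 to 1.71), Msmo1 0.944 (0.729 to 1.22) and Nsdhl 1.05 (0.658 to 1.65). Tm7sf2 (6 and 19 UMIs) and Hsd17b7 (6 and 22 UMIs) were too sparse to place.

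Of the last 3 steps, the first and the final one were called higher in the PPARg-low library. Ebp (ENSMUSG00000031168, chromosome X, 8185329 to 8193512, minus strand), the isomerase that moves the double bond of the sterol ring, had 510 UMIs (176 CPM) in the PPARg-low and 559 UMIs (94.8 CPM) in the PPARg-negative library. Its ratio of 1.85 (1.64 to 2.09) was the highest among the synthesis genes. Sc5d, the desaturase that follows, had 38.3 and 25.8 CPM, a ratio of 1.48 (1.15 to 1.91) just short of the called size. Dhcr7 (ENSMUSG00000058454, chromosome 7, 143823145 to 143848410, plus strand), the reductase that completes cholesterol by one of its routes, had 104 UMIs (35.8 CPM) and 124 UMIs (21.0 CPM), a ratio of 1.71 (1.30 to 2.23). The sum moved with Ebp: all 18 synthesis genes together had 451 and 383 CPM, a ratio of 1.18 (1.10 to 1.26), while without Ebp they had 275 and 288 CPM, a ratio of 0.956 (0.878 to 1.04). Leaving out Ebp was also a choice made after its values were seen.

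Within the kinds of cells, Idi1 was again lower in both, while Ebp was higher in ribosome-rich cells only and Dhcr7 in neither; the difference between the kinds was not tested. Of the 15 synthesis genes measured in ribosome-rich cells, 4 were called lower (Acat2, Idi1, Fdps and Sqle) and 1 higher (Ebp), where 3.84% and 17.2% of 9254 measured genes were called. In ribosome-poor cells, 4 of 13 were called lower (Hmgcs1, Mvd, Idi1 and Msmo1) and 0 higher, where 5.12% and 6.52% of 7636 genes were called. Ebp had 132 CPM in the PPARg-low and 78.0 CPM in the PPARg-negative library in ribosome-rich cells, a ratio of 1.69 (1.43 to 1.99). In ribosome-poor cells it had 243 and 229 CPM, a ratio of 1.06 (0.867 to 1.30). Ebp thus stood higher in ribosome-poor than in ribosome-rich cells of both libraries, and the PPARg-low library held more of them. Dhcr7 lost its call in both kinds, with ratios of 1.39 (0.949 to 2.01) and 1.18 (0.743 to 1.90).

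With Ebp, the ratio of the summed synthesis genes was 1.05 (0.953 to 1.15) in ribosome-rich and 0.7985 (0.710 to 0.898) in ribosome-poor cells. Without Ebp, a choice made after its values were seen, the ratio of the sum had an interval below 1 within both kinds. Over all cells that interval reached above 1. In ribosome-rich cells the sum without Ebp was 220 CPM in the PPARg-low and 258 CPM in the PPARg-negative library, a ratio of 0.853 (0.760 to 0.956). In ribosome-poor cells it was 359 and 524 CPM, a ratio of 0.684 (0.591 to 0.792), where the median ratio of all genes was 1.02. Mvd there had 25.1 and 48.8 CPM, a ratio of 0.515 (0.301 to 0.879), and Hmgcs1 had 19.9 and 42.7 CPM, a ratio of 0.467 (0.257 to 0.841). Msmo1, the methyl oxidase of the sterol ring, had 47.6 and 85.3 CPM, a ratio of 0.558 (0.378 to 0.825). The plot of ratios shows the single members, not the sums, over all cells and within both kinds.

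**Figure D2:**
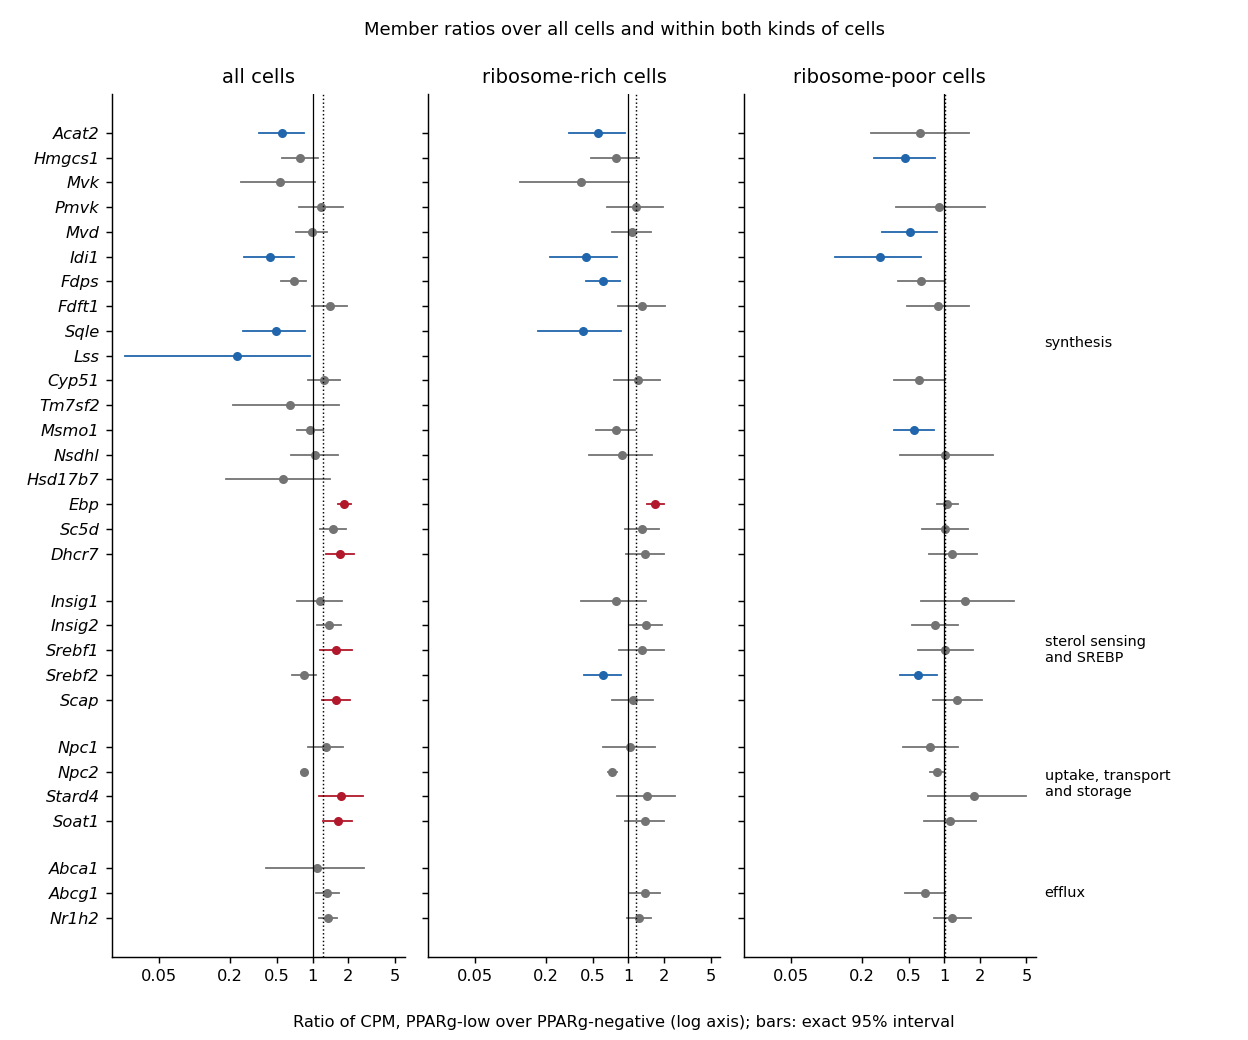
Ratio of CPM, PPARg-low over PPARg-negative (log axis), of each measured member over all cells and within ribosome-rich and ribosome-poor cells; bars are exact 95% intervals, red and blue mark members called higher and lower, the solid line is 1 and the dotted line the median of all measured genes. Idi1 is blue in every panel, at 0.434, 0.434 and 0.284, and no member is red in ribosome-poor cells.

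The promoters of these genes are shown because synthesis genes with opposite ratios have common elements in them. RefSeq promoters (GRCm38.p6, from 250 bases before to 50 after each start site) were at hand for 24 of the 30 members, 15 of them synthesis genes. The windows below are up to 200 bases before the start site, ended where GENCODE M21 places the first exon base of the gene, read 5′ to 3′ on the strand of the gene. Capitals mark the sterol regulatory element, to which SREBPs bind (searched as TCACNCCAC), and boxes for NF-Y (CCAAT, here on the reverse strand), a factor that works beside SREBPs. Hmgcs1 (chr13:119690151-119690350, plus strand) and Lss (chr10:76531405-76531587, plus strand) stand for synthesis genes with ratios below 1, Srebf2 (chr15:82147069-82147180, plus strand) for the SREBP genes and Ebp (chrX:8193513-8193712, minus strand) for the higher genes.
Hmgcs1: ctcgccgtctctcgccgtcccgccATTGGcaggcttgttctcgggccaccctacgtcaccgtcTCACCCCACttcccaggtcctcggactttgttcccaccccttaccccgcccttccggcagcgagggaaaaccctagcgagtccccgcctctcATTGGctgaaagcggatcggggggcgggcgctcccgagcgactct
Lss: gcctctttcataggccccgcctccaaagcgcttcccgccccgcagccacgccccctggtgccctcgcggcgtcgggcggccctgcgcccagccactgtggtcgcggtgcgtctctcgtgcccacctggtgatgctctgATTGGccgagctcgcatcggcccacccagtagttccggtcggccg
Srebf2: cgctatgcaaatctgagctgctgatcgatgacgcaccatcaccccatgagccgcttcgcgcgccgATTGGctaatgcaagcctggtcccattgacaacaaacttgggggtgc
Ebp: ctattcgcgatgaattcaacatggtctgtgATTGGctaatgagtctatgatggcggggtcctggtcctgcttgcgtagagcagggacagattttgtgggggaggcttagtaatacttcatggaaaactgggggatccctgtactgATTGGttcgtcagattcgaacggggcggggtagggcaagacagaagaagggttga

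An NF-Y box stood in 14 of the 15 synthesis promoters, all but Acat2, and in 20 of the 24 members, against 37.4% of all 32851 promoters and 43.0% of the 7515 measured genes with a promoter. In Ebp, the highest of the synthesis ratios, boxes lay 170 and 55 bases before the start site. In Idi1, the lower gene in every kind of cell, they lay 45 and 14 bases before its RefSeq start site. GENCODE M21 starts Idi1 further upstream, at 8885501. Both boxes thus fall inside an annotated exon, and no Idi1 window is printed. An Sp1 box (GGGCGG) stood in 22 of the 24, against 35.7% of promoters and 70.8% of measured genes. The exact sterol regulatory element was found in Hmgcs1 alone, 137 bases before the start, and in 1.24% of all promoters. Single binding sites of nuclear receptors (AGGTCA) stood in 3 of the 24 members against 16.3% of promoters and 14.5% of measured genes. Their direct repeats with 1 or 4 bases between, the forms for PPARg and liver X receptors, stood in 0 of the 24. These exact repeats stood in only 13 and 5 of all 32851 promoters, and in 2 and 0 of the 7515 measured genes. Their absence from 24 members therefore says little about these genes. Both strands were searched, and no motif searched contains another except that the direct repeats contain the single site. An E box (CACGTG) stood in 6 of the 24 members against 7.15% of promoters and 12.3% of measured genes. These counts describe letters in a window. Of the called synthesis genes, NF-Y boxes stood in Idi1 and Lss, both lower, and in Ebp and Dhcr7, both higher. Dhcr7 had them at 1 of its 3 start sites. Acat2, also lower, had none, and for Sqle no promoter was at hand.

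Of the 5 sterol sensing and SREBP genes, 2 were called higher and 0 lower over all cells, against 24.3% and 4.38% of all genes. Relative to the median of all genes, 0 of the 5 were called in either direction. Srebf1, whose product acts chiefly on fatty acid genes, had 75 UMIs (25.8 CPM) in the PPARg-low and 97 UMIs (16.4 CPM) in the PPARg-negative library, a ratio of 1.57 (1.15 to 2.15). Scap, the escort of both SREBPs, had 33.1 and 20.9 CPM, a ratio of 1.59 (1.202 to 2.09). Neither was called within either kind of cell: Srebf1 had ratios of 1.32 (0.840 to 2.02) and 1.02 (0.604 to 1.75), Scap 1.09 (0.721 to 1.63) and 1.28 (0.804 to 2.102).

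Srebf2 (ENSMUSG00000022463, chromosome 15, 82147181 to 82205379, plus strand) encodes SREBP2, the main activator of cholesterol synthesis genes. Over all cells it had 105 UMIs (36.2 CPM) in the PPARg-low and 253 UMIs (42.9 CPM) in the PPARg-negative library, a ratio of 0.844 (0.665 to 1.06). Within ribosome-rich cells it had 22.3 and 36.4 CPM, a ratio of 0.613 (0.422 to 0.868). Within ribosome-poor cells it had 57.2 and 94.5 CPM, a ratio of 0.605 (0.421 to 0.870). Srebf2 was thus called lower within both kinds and not over all cells. Without the cluster led by Ccr2 and Gzmb, its ratio in ribosome-poor cells was 0.696 and was no longer called. Its level was higher in ribosome-poor cells of both libraries, and the PPARg-low library had the larger share of those cells.

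The Insig genes, which encode the anchors that retain Scap, were not called. Insig1 had 35 and 62 UMIs, or 12.1 and 10.5 CPM, a ratio of 1.15 (0.736 to 1.76). Insig2 had 119 and 176 UMIs, or 41.0 and 29.8 CPM. Its ratio of 1.37 (1.08 to 1.74) had an interval above 1 but lay near the median of all genes, 1.22.

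Uptake is represented by Npc1 and Npc2, which act after lipoproteins reach the lysosome, and neither was called. Npc2 (ENSMUSG00000021242, chromosome 12, 84754562 to 84773152, minus strand), the lysosomal carrier that hands cholesterol to Npc1, had 1291 UMIs (445 CPM) in the PPARg-low and 3105 UMIs (527 CPM) in the PPARg-negative library. Its ratio of 0.845 (0.791 to 0.902) was below 1 and short of the called size, as it was in ribosome-rich cells at 0.728 (0.667 to 0.794) and in ribosome-poor cells at 0.867 (0.765 to 0.983). Npc1, the membrane protein that passes cholesterol out of the lysosome, had 57 and 90 UMIs, a ratio of 1.29 (0.907 to 1.81).

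The genes for transport and storage were called higher over all cells, so 2 of the 4 in this group were higher and 0 lower, against 24.3% and 4.38% of all genes. Relative to the median of all genes, 0 of the 4 were called. Stard4, a soluble carrier of cholesterol between membranes, had 42 UMIs (14.5 CPM) in the PPARg-low and 49 UMIs (8.31 CPM) in the PPARg-negative library, a ratio of 1.74 (1.13 to 2.69). Soat1, which esterifies cholesterol for storage, had 92 UMIs (31.7 CPM) and 115 UMIs (19.5 CPM), a ratio of 1.63 (1.22 to 2.16). Neither was called within a kind of cell. Soat1 had ratios of 1.38 (0.930 to 2.02) in ribosome-rich and 1.12 (0.682 to 1.86) in ribosome-poor cells, and Stard4 had 1.43 (0.795 to 2.49) and 1.79 (0.737 to 4.95).

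Of the 3 efflux genes, 0 were called in either direction over all cells, against 24.3% of all genes higher and 4.38% lower. The 2 measured within the kinds of cells were not called there either. Of all genes, 17.2% were higher and 3.84% lower in ribosome-rich cells, and 6.52% and 5.12% in ribosome-poor cells. So few genes cannot be set apart from these shares. Abca1, the exporter that loads cholesterol onto apolipoproteins, had 8 UMIs (2.76 CPM) in the PPARg-low and 15 UMIs (2.54 CPM) in the PPARg-negative library. At this depth its ratio of 1.08 (0.398 to 2.72) could not show a difference. Abcg1, the exporter to high-density lipoprotein, had 133 UMIs (45.8 CPM) and 204 UMIs (34.6 CPM), a ratio of 1.33 (1.06 to 1.66). In ribosome-rich cells Abcg1 had a ratio of 1.39 (1.04 to 1.86) and in ribosome-poor cells 0.691 (0.469 to 1.02). Nr1h2, which encodes liver X receptor beta, had 72.7 and 54.3 CPM, a ratio of 1.34 (1.12 to 1.60), with 1.24 (0.982 to 1.55) and 1.17 (0.822 to 1.69) within the kinds. The Abcg1 and Nr1h2 ratios over all cells lay close to the 1.22 of all genes.

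Cells were clustered without the members, so that their levels could be described by cluster. The cluster led by Ccr2, Ccr3, Gzmb and Itgae, which was effector Treg-like by its markers, had the highest synthesis level among clusters of 50 or more cells in each library. In 273 PPARg-low cells of it the synthesis genes without Ebp summed to 402 CPM (347 to 464), and in 342 PPARg-negative cells to 516 CPM (459 to 577). Among the other effector-like clusters, the one led by Pdcd1, Epcam and Id2 had 216 CPM (188 to 248) in 660 PPARg-low cells, and the one led by Ccl4, Il10 and Il1r2 had 340 CPM (295 to 390) in 286 PPARg-low cells, an interval that overlaps that of the Ccr2 cluster. So did that of 50 PPARg-low cells led by Ssbp2 and Ccr7, with 359 CPM (219 to 554). In the PPARg-negative library the resting-like cluster led by Ly6c1, Satb1 and Actn1 had 261 CPM (236 to 287) in 713 cells, and the cluster led by Ssbp2 and Abhd8 had the lowest level, 204 CPM (173 to 240). A small cluster led by mitotic genes such as Pbk and Aurkb, with 15 and 11 cells, had 360 CPM (250 to 500) and 582 CPM (410 to 803). Npc2 was also high in the Ccr2 cluster, though not there alone. It had 654 CPM (583 to 732) in the PPARg-low and 642 CPM (579 to 710) in the PPARg-negative cells. In the PPARg-negative library the resting-like cluster had 595 CPM (557 to 634). The one led by Igfbp4 and Gpr83 had 560 CPM (524 to 598). The 50 PPARg-low cells led by Ssbp2 and Ccr7 had 538 CPM (363 to 768). These intervals overlap those of the Ccr2 cluster, and the other clusters of 50 or more cells lay lower. The plot by cluster shows the sums of all groups.

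**Figure D3:**
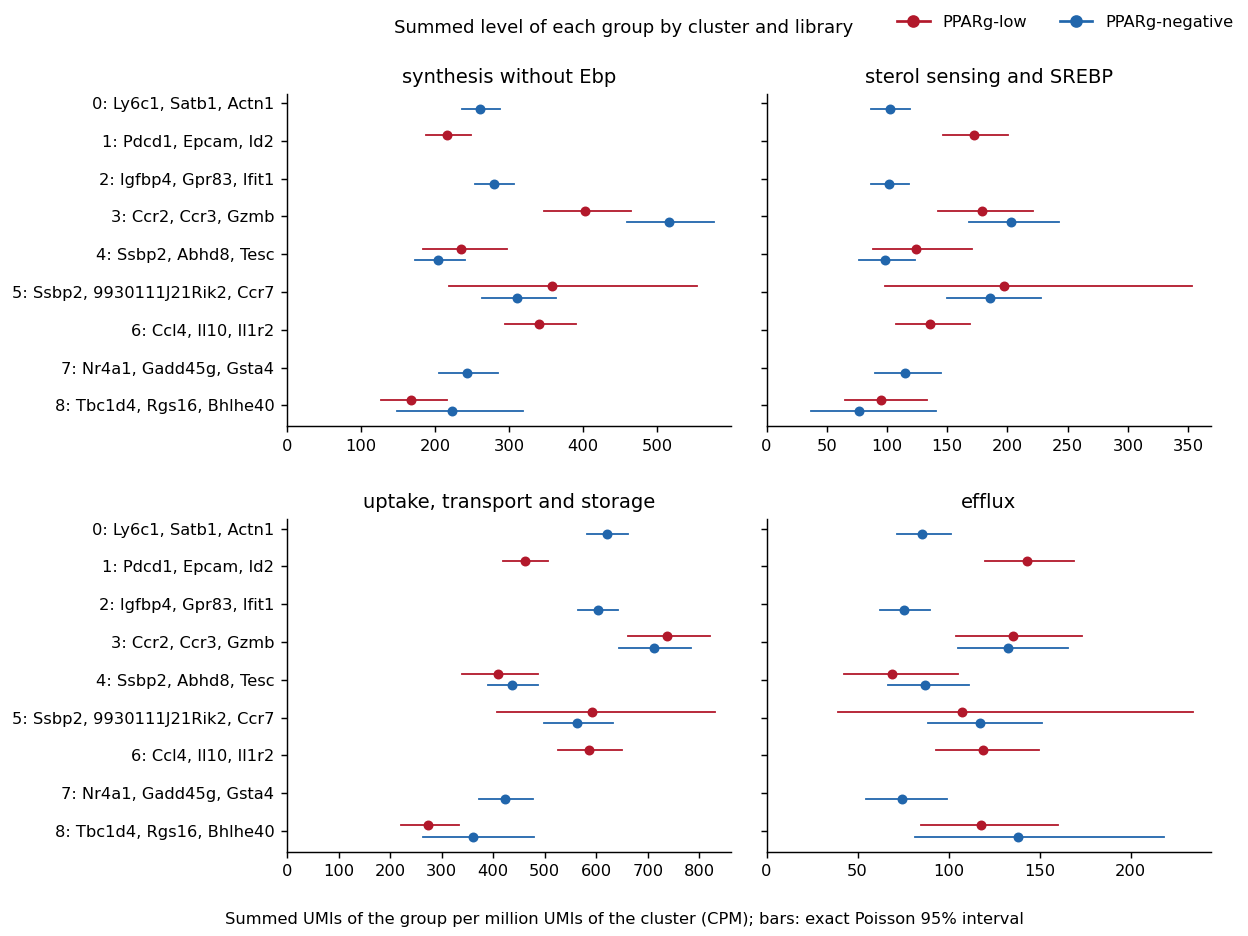
Summed UMIs of each group of members per 1000000 UMIs of the cluster (CPM), for clusters with 50 or more cells of the library, in PPARg-low (red) and PPARg-negative (blue) cells; bars are exact Poisson 95% intervals. The panel of synthesis genes without Ebp peaks in the cluster led by Ccr2, Ccr3 and Gzmb, at 402 and 516 CPM.

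That cluster held many cells of both libraries, so both could be compared within it. Its summed synthesis genes had a ratio of 0.847 (0.725 to 0.9875) with Ebp and 0.780 (0.647 to 0.939) without it. Over all genes of the cluster the median ratio was 1.005, and 3.23% were called higher and 2.5% lower. Of 10 synthesis genes measured in it, 1 was called lower, 1 higher, and 6 had ratios below 1. Msmo1 had 26 UMIs (56.0 CPM) in the PPARg-low and 55 UMIs (93.6 CPM) in the PPARg-negative cells, a ratio of 0.598 (0.360 to 0.969). Dhcr7 had 60.2 and 30.6 CPM, a ratio of 1.97 (1.05 to 3.78). Srebf2 had 19 UMIs (40.9 CPM) and 51 UMIs (86.8 CPM), a ratio of 0.471 (0.263 to 0.812). Hmgcs1, Mvd, Idi1 and Cyp51 had ratios from 0.421 to 0.610 whose intervals included 1. Ebp was level there, with 200.1 and 196 CPM.

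**Figure D4:**
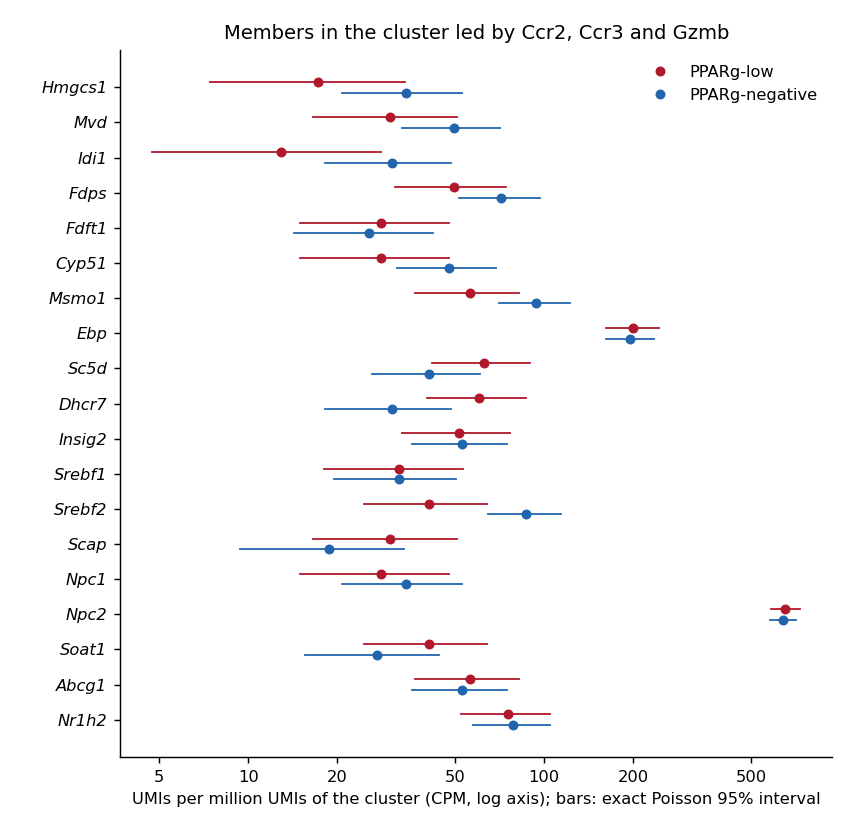
Level of the 19 members measured in the cluster led by Ccr2, Ccr3 and Gzmb, in UMIs per 1000000 UMIs of the cluster (CPM, log axis), for PPARg-low (red) and PPARg-negative (blue) cells; bars are exact Poisson 95% intervals. Srebf2 stands at 40.9 and 86.8 CPM and Msmo1 at 56.0 and 93.6 CPM, while Ebp and Npc2 nearly coincide.

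The sum without Ebp had intervals that included 1 in the other clusters of this clustering with 50 or more cells of both libraries. It was 1.15 (0.858 to 1.54) in the cluster led by Ssbp2 and Abhd8, 1.15 (0.686 to 1.85) in that led by Ssbp2 and Ccr7, and 0.751 (0.473 to 1.22) in that led by Tbc1d4 and Rgs16. A coarser clustering (resolution 0.6) gave 0.823 (0.692 to 0.977) in the cluster led by Ccr2 and Gzmb. It gave 1.32 (0.992 to 1.78) in that led by Penk and Pdcd1, and 0.904 (0.642 to 1.25) in that led by Ssbp2 and Lrrc32. With Ebp, the Penk and Pdcd1 cluster had 1.36 (1.09 to 1.71). A finer clustering (1.5) gave 0.5915 (0.469 to 0.744) in the cluster led by Gzmb and Ccr3. That led by Cxcr3 and Ccr2 had 1.055 (0.701 to 1.55), and the rest had intervals that included 1. The difference between clusters was not tested. Without the Ccr2 cluster, 9 synthesis genes were still measured in ribosome-poor cells, Idi1 not among them. Of these 0 were called, against 7.6% of all genes higher and 6.34% lower. The ratios of 7 stayed below 1, with Hmgcs1 at 0.502 and a median log2 ratio of -0.38 over the 9. Fewer counts remained without that cluster, and whether the missing calls go with the cluster or with the counts was not tested. Over all cells without it, 2 of 17 were called higher and 5 lower, against 26.8% and 4.65% of 9620 genes, and Idi1 had a ratio of 0.410.

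Shares of cells with a transcript were compared after each cell was thinned to 750 UMIs, which 1381 PPARg-low and 2394 PPARg-negative cells allowed; 238 and 239 cells with fewer UMIs dropped out. Ebp transcripts were seen in 13.1% (11.4 to 15%) of the PPARg-low and 6.77% (5.79 to 7.85%) of the PPARg-negative cells, and before thinning in 25.8 and 18.8%. Any synthesis gene other than Ebp was found in 17.2% (15.2 to 19.3%) and 18.9% (17.3 to 20.5%), and before thinning in 33.9 and 38.1%. Npc2 was found in 28.8% (26.4 to 31.2%) and 32.5% (30.6 to 34.4%), and before thinning in 49.5 and 61.7%. The B cell gene Cd79a, which Tregs should lack, was found in 0.217 and 0.0835% of the same thinned cells. These shares are a rough gauge of RNA from other cells, and whether it was free RNA was not tested. Within ribosome-poor cells the Ebp share was 16.4% in the PPARg-low and 16.2% in the PPARg-negative library, and within ribosome-rich cells 9.39 and 5.56%.

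Other genes of the pathway, from a list of 52 that are no members, were counted by the same rule. Of 38 that were measured, 8 were called higher and 2 lower, shares close to the 24.3% and 4.38% of all genes, with a median log2 ratio of 0.41 against 0.29 for all genes. Acly, which makes the acetyl-CoA that feeds both sterols and fatty acids, had 379 UMIs (131 CPM) in the PPARg-low and 302 UMIs (51.2 CPM) in the PPARg-negative library, a ratio of 2.55 (2.19 to 2.98). Fasn, fatty acid synthase, had a ratio of 1.60 (1.05 to 2.41). Lrp10, a receptor of the lipoprotein receptor family, had 350.1 and 156 CPM, a ratio of 2.24 (2.05 to 2.45), and Scarb1, the receptor for high-density lipoprotein, had 19 and 12 UMIs, a ratio of 3.22 (1.48 to 7.27). Gpr183, the receptor that guides lymphocytes along oxysterols, had 143 and 84.8 CPM, a ratio of 1.69 (1.48 to 1.93). Dhdds and Nus1, which together make dolichol from isoprenoids, had ratios of 1.75 (1.17 to 2.61) and 1.501 (1.14 to 1.97), and Gramd1b, a sterol carrier at membrane contacts, 1.59 (1.11 to 2.28). Fntb, a farnesyltransferase subunit, was called lower, with 19 UMIs (6.55 CPM) and 69 UMIs (11.7 CPM), a ratio of 0.560 (0.318 to 0.941). None of the 5 genes of SREBP cleavage and sterol-driven degradation was called, with ratios from 1.34 to 1.44. Within ribosome-poor cells, 2 of 29 measured genes of this list, Acly and Nus1, were called higher and 3 lower, against 6.52% and 5.12% of all genes. Of the named genes, Acly was called within both kinds, with ratios of 2.68 (2.22 to 3.23) in ribosome-rich and 1.56 (1.15 to 2.14) in ribosome-poor cells. Lrp10 was called in ribosome-rich cells at 1.81 (1.59 to 2.06) and not in ribosome-poor cells at 1.21 (1.05 to 1.39). Gpr183 was called in neither, with 1.45 (1.21 to 1.75) and 0.972 (0.786 to 1.205), and neither were Fasn, Dhdds and Gramd1b. Nus1 was called in ribosome-poor cells alone, at 1.91 (1.033 to 3.75), and Scarb1 was too sparse to measure in either kind. Fntb was not called in ribosome-rich cells and was too sparse in the others.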

How the data were processed

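The authors deposited raw UMI counts per gene and barcode for each of the 2 libraries, made with Cell Ranger 2.1.0 on mm10, per the submitters' processing notes. Annotation, strand setting and cell calling are not given in the sources used, so members that overlap a gene on the other strand (Mvd, Fdft1, Lss, Cyp51, Srebf1 and Npc1) or on the same strand (Fdps and Tm7sf2) may share reads with it. The files of the group labelled low are tagged pos; the wording of the label was kept. The members and lists were chosen with earlier results of these data known. Counts were summed over kept cells, expressed as CPM (UMIs per 1000000) and compared by a ratio with an exact conditional binomial interval; no p-value was computed, and a gene at 0 in 1 library entered at 3 counts. On simulated Poisson counts of 9839 genes for this comparison 96.0% of intervals of 9639 unchanged genes held the ratio simulated, and 1.61% of these genes were called; doubled genes were called in 86% and halved genes in 82% of cases. Scrublet marked 11 and 9 cells as doublets, which were kept. Cells were clustered on log counts per 10000 of 2000 variable genes, members left out, with 20 components, 15 neighbours and Leiden resolution 1.0 (scanpy 1.11.5, leidenalg 0.10.2), and a cluster was named from 3 or more markers among its 10 leading genes; cluster sizes were not compared. The split at a 20% ribosomal share follows earlier results, and the alternatives without the Ccr2 cluster or with other splits were chosen after seeing the data. Members are all named; other pathway genes were named as up to 3 called genes per list and direction, by the interval bound nearest 1; 1 gene that this rule names is not reported here. Motifs were searched on both strands in RefSeq promoters (GRCm38.p6), and positions come from GENCODE M21, which held 28339 of the gene identifiers. Intervals used scipy 1.17.1 with numpy 2.4.6, tables pandas 2.3.3 and plots matplotlib 3.10.9, under Python 3.11.15.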

Additional observations from a re-analysis of the deposited data

How the results depend on the processing

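With 1 library per group no library could be left out. No paired analysis was possible because each group has 1 library. Of 411 values of single genes under the alternatives, 340 kept their call or its absence, 33 of these being uncalled ratios that crossed 1, 43 lost the call and 26 gained one. Of the called genes 2 reversed, Dhcr7 (0.880) and Soat1 (0.835), both in ribosome-poor cells without the Ccr2 and Gzmb cluster. Counts of called genes that moved by over 1.5 times are given by setting. Totals without ribosomal and mitochondrial genes, and ratios divided by the median ratio, each left 1 synthesis gene higher and 7 lower, 0 sensing and 0 uptake genes higher, and 3 other pathway genes higher. Of all genes, totals without ribosomal and mitochondrial genes called 13.1% higher and 8.01% lower. At most 5% mitochondrial UMIs gave 0 sensing genes higher and 1 lower, 0 uptake genes higher and 5 other genes higher. Of all genes, 19.8% were then higher and 3.68% lower. With 500 or more genes per cell 1 other gene was lower, against 23.9% of all genes higher and 4.03% lower. Equal weight of cells, where genes were called by the size of the ratio alone without an interval, gave 7 synthesis genes lower and 1 uptake gene higher. Among the others 13 were higher and 4 lower. By the same looser rule 27.05% of all genes were higher and 7.54% lower. Thinning to 750 UMIs gave 1 sensing gene higher and 1 lower, 1 uptake gene and 1 efflux gene higher and 1 other gene lower. Of all genes, 20.15% were higher and 4.36% lower after thinning. Ribosome-rich cells had 1 synthesis, 0 sensing and 0 uptake genes higher, 1 sensing gene lower and 4 other genes higher; ribosome-poor cells had 0 synthesis, 0 sensing and 0 uptake genes higher, 1 sensing gene lower and 2 other genes higher. Without the Ccr2 and Gzmb cluster ribosome-poor cells had 0 synthesis genes higher and 0 lower, 0 sensing and 0 uptake genes higher and 2 other genes higher. A ratio of 2 called 0 synthesis, 0 sensing and 0 uptake genes higher, with 3 other genes higher and 1 lower, against 11.5% and 2.29% of all genes. A minimum of 100 UMIs left 2 synthesis genes lower, 1 uptake gene higher and 0 other genes lower, where 23.3% of all genes were higher and 4.33% lower. Over all 30 members, 2 were higher in ribosome-rich cells with the split at 15% or at 25%, and 1 in ribosome-poor cells at 25%. The share over all genes was not computed at these 2 splits, so nothing about the members can be read from these counts. Synthesis without Ebp in PPARg-negative cells of the Ccr2 and Gzmb cluster was 447 CPM at Leiden resolution 0.6 and 720 CPM at 1.5. Any synthesis gene was found in 20.3 and 18.3% of PPARg-low and PPARg-negative cells at 500 UMIs and in 49.97 and 48.7% without thinning, against 28.5 and 24.0% at 750. The causes of these changes were not tested. The depth limits the sparse genes: Abca1, Lss, Tm7sf2 and Hsd17b7 had under 30 UMIs over both libraries.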
